A study of Homo sapiens with 12 samples.

Results

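Gene expression was compared between 22Rv1 cells given siRNA against ZNF783 and the controls of that same experiment, the ZNF783 arm of a study concerned with phosphorylated RB, ETS1 and CDK4/6 inhibitors. These are 6 of the study's 12 RNA libraries, chosen by their titles: 3 with the siRNA and 3 titled as its negative controls, all taken across every gene. The other 6 libraries come from an ETS1 siRNA experiment with controls of its own and enter here in a single comparison near the end. 22Rv1 is an established human prostate cancer line derived from a xenograft tumour, grown here in RPMI-1640 with fetal bovine serum. The siRNA sequence, the number of siRNAs used, the dose, the time of harvest and what the control cells received are not given in the sources used here. One line, and an siRNA of unknown sequence, limit what the groups stand for, and nothing in the labels says that the 3 replicates of a group were grown separately. The p-values therefore reflect the spread between libraries, which may be technical alone.

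An siRNA is a short duplex RNA that guides the Argonaute protein AGO2 to a matching transcript, which is then cut. ZNF783 encodes a C2H2 zinc finger protein from a cluster of zinc finger genes on the long arm of chromosome 7. Several of the genes described below belong to the endoplasmic reticulum (ER), where secreted and membrane proteins are folded. There the chaperone BiP, encoded by HSPA5, binds unfolded chains, and the sensors ATF6, IRE1 and PERK raise chaperone, degradation and amino acid supply genes when unfolded protein builds up, which is called the unfolded protein response.

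The 6 libraries held 13518177 to 22544431 counted reads and 28614 to 30581 detected genes, and 3 counts correspond to 0.133 to 0.222 CPM (counts scaled to a common library size). The main axis of variation over 10469 genes averaging 10 CPM or more carried 61.5% of the variance and separated the siRNA from the control libraries. The prostate luminal and epithelial markers, among them FOXA1 and TMPRSS2, all 13 averaged 10 CPM or more. Of the 12 leukocyte and 8 endothelial markers none reached 10 CPM. CD3D and CD3E had 0 counts in the 6 libraries, and the summed level of the leukocyte markers ran from 3.1 to 3.98 CPM with the siRNA and from 3.82 to 4.15 CPM in the controls. The fibroblast markers summed to 39.4 to 42.6 CPM with the siRNA and 45.7 to 48.8 CPM in the controls, 2 of the 10 reaching 10 CPM and FAP standing at 0. The part of these markers in the results was not tested. In bulk RNA, fewer cells of a kind and less RNA per cell cannot be told apart.

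The targeted gene was checked before the others. ZNF783 (ENSG00000204946, plus strand of GRCh38 chromosome 7, 149262171 to 149297302) was measured at 28.7, 27.4 and 28 CPM with the siRNA and 33.9, 34.9 and 35.7 CPM in the controls. Its siRNA libraries all lay below its controls, at 80.5% of the control mean (log2 fold change -0.31, SE 0.055, edgeR adjusted p = 2.46e-05). When each library was corrected for GC content and gene length, the value was -0.24 (edgeR adjusted p = 0.00089), and in a fit of all 12 libraries of the study the fall did not pass (-0.32, edgeR adjusted p = 0.145). ZNF783 shares exon positions with the annotated gene ENSG00000244560 on the same strand, so some of its reads could not be assigned with certainty. ZNF783 RNA also had a negative value with ETS1 siRNA against the controls of that experiment, as given near the end. The difference between the siRNA effects on it was not called over all 12 libraries. That comparison cannot decide whether the fall was specific to ZNF783 siRNA, because the experiments had separate controls.

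A gene was called when edgeR's quasi-likelihood test, adjusted over all genes tested by the Benjamini-Hochberg method, gave an adjusted p below 0.05. Of 17630 genes tested, 4428 were called (25.1%), 1993 higher (11.3%) and 2435 lower (13.8%). The balance of directions moved with the scaling, with 2175 higher and 2257 lower under upper-quartile factors and 2298 higher and 2200 lower under library size alone. In 4228 of the 4428 the siRNA and control libraries did not overlap, against 6733 of all genes tested (38.2%). The changes were small. The median size of a called change was 0.20 on the log2 scale, 76 called genes were higher and 162 lower by at least 1.5-fold, and 13 were higher and 29 lower by at least 2-fold. Protein-coding genes made up 1824 of the higher and 2357 of the lower calls. In the highest of 5 equal classes of protein-coding genes by mean level, 22.1% were called higher and 27.6% lower. In the lowest class these shares were 1.54% and 6.63%. Counts of the lists below are to be read beside these shares and those of all genes tested. The plot of called genes by level shows that the changes of 1 log2 unit or more lie among genes of a few CPM or less, where a small change could not be called.

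**Figure D1:**
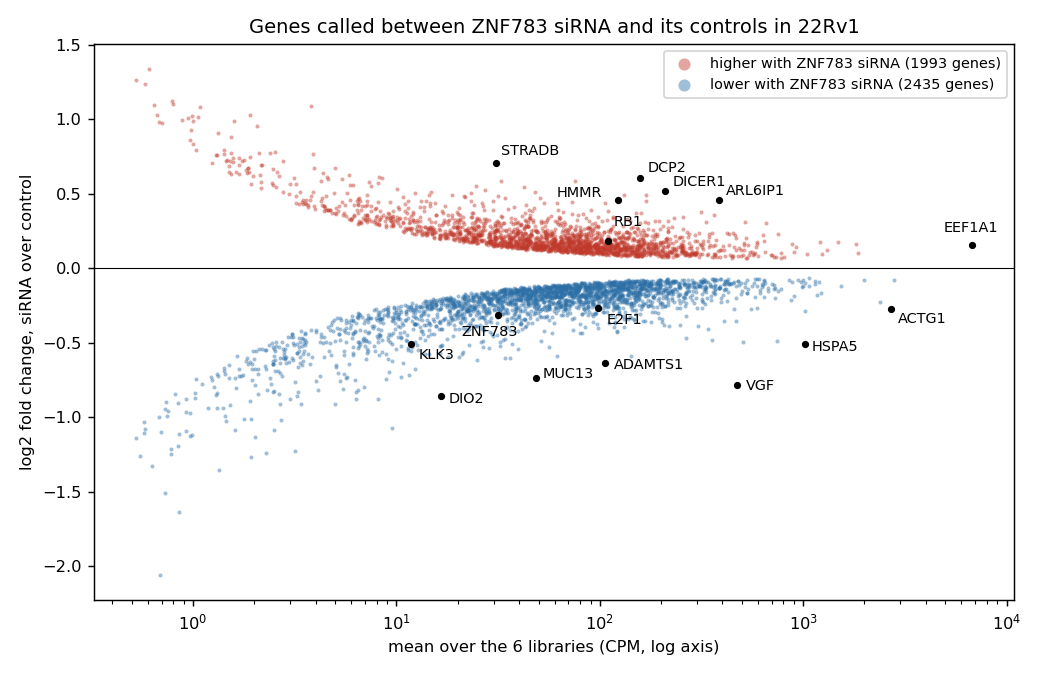
Each point is 1 of the 4428 called genes, with its mean over the 6 libraries in CPM on a log axis and its log2 fold change, siRNA over control, on the vertical axis; 1993 are higher (red) and 2435 lower (blue). VGF, HSPA5, ACTG1 and EEF1A1 are named examples of well-expressed genes that changed, and genes above 100 CPM mostly lie within 0.5 log2 units of 0.

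The direction of the calls followed the base composition of the transcripts. Across 10000 protein-coding genes averaging 10 CPM or more, log2 fold change had a Spearman correlation of -0.539 with exon GC content and 0.221 with exon length, which describes genes within 1 experiment and not independent replicates. Exon GC content, here and below, is that of each gene's longest annotated transcript. All tested protein-coding genes with an exon GC value were also divided into 5 equal classes by GC content. In the class with the lowest GC content 30.7% were called higher and 4.76% lower, and in the class with the highest 1.17% were called higher and 36.9% lower. After each library was corrected for GC content and length the correlation with GC was -0.0078, as the correction is built to remove it. With that correction 3361 genes were called (19.1%), 1355 higher (7.69%) and 2006 lower (11.4%), and 2446 of the 4428 genes (55.2%) kept their call and direction. Whether the GC pattern arose in the cells or in library preparation was not tested. Where the correction ends a call or moves a value by over 1.5 times, this is stated with the gene or at the end of the account of the lists.

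**Figure D2:**
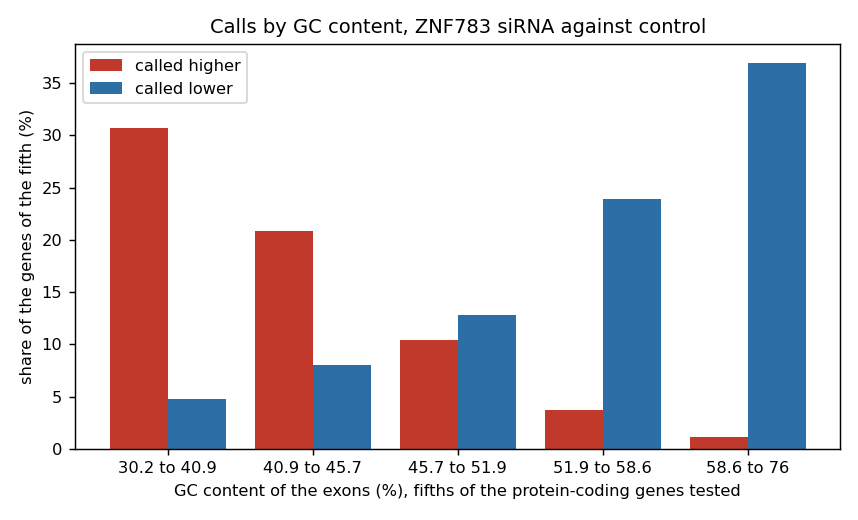
Bars give the share of protein-coding genes called higher (red) and lower (blue) with ZNF783 siRNA in each of 5 equal classes of exon GC content. The share called higher falls from 30.7% to 1.17% and the share called lower rises from 4.76% to 36.9% between the lowest and the highest class.

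The fit of the 6 libraries and the fit of all 12 differed in how many genes they called. In the 12-library fit, 824 genes were called for the same contrast, and 822 of the 4428 kept their call. The common coefficient of variation between replicates was 0.0237 in the 6 libraries and 0.0795 in the 12. Without ETS1 siRNA replicate 1, a library that stands apart from the replicates of its own group, the joint fit called 4402 genes, 4276 of them among the 4428. Of the 299 called genes picked by the naming rule and reported on 177 lost their call in the 12-library fit. Among the genes described below HSPA5, PDIA4, HYOU1, MANF, PDIA3, HERPUD1, GDF15, SLC7A5, PSAT1, DICER1, TNRC6A, TNRC6B, AGO2, AGO4, DCP2, XRN1, HMGCS1, MSMO1, STRADB, PRKAB2, ADAMTS1, VGF, DIO2 and ARL6IP1 were called in all 3 fits.

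Genes of ER protein folding were lower. Of 31 listed chaperones, disulfide isomerases and folding enzymes 30 were expressed enough to test, and 18 fell, 0 rose and 12 were not called, where 13.8% of all tested genes fell. The median log2 fold change of the 30 was -0.16, against 0.0017 over all genes tested. With the GC and length correction 19 were lower and 1 higher, with a median of -0.13. The median exon GC content of the list was 51.1%, against 48.4% for all genes tested.

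HSPA5, which encodes the chaperone BiP (ENSG00000044574, minus strand of GRCh38 chromosome 9, 125234853 to 125241330), was measured at 841, 839 and 846 CPM with the siRNA and 1188, 1188 and 1210.0 CPM in the controls. The spread within each group was small beside the gap between them, and the siRNA libraries stood at 70.5% of the control mean. PDIA4, a disulfide isomerase of the ER (ENSG00000155660, minus strand of GRCh38 chromosome 7, 149003062 to 149028641), stood at 418, 417 and 429 CPM with the siRNA and 596, 595 and 592 CPM in the controls (log2 fold change -0.50, SE 0.025, edgeR adjusted p = 7.64e-20). The gene lies next to the zinc finger cluster that holds ZNF783. HYOU1, a large HSP70-like chaperone that acts with BiP, stood at 298, 299.6 and 295 CPM with the siRNA and 409, 437 and 401 CPM in the controls (log2 fold change -0.48, SE 0.028, edgeR adjusted p = 2.47e-17). MANF, a secreted ER stress protein that binds BiP, stood at 108, 102 and 101 CPM with the siRNA and 141, 137 and 139 CPM in the controls (log2 fold change -0.42, SE 0.033, edgeR adjusted p = 1.83e-13). In each of these 4 genes the siRNA libraries lay below all 3 controls.

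SDF2L1, which works with the ER-resident J proteins, was the lowest of the list, at 47.5, 42.4 and 47.3 CPM with the siRNA and 67.8, 71.8 and 59.5 CPM in the controls (log2 fold change -0.53, SE 0.065, edgeR adjusted p = 3.31e-05). CRELD2, a disulfide isomerase-like ER stress gene, was measured at 124, 126 and 126 CPM with the siRNA and 156, 163 and 154 CPM in the controls (log2 fold change -0.33, SE 0.032, edgeR adjusted p = 4.12e-11). Smaller falls were seen in the cyclophilin gene PPIB (-0.31), the disulfide isomerases PDIA3 (-0.28), PDIA6 (-0.25) and P4HB (-0.16) and the lectin chaperone CALR (-0.17). The BiP co-chaperones DNAJC1 (-0.24), DNAJC3 (-0.24), DNAJB11 (-0.17) and SIL1 (-0.17) fell too, SIL1 losing its call with the correction. The oxidase ERO1B (-0.14), ERP29 (-0.09) and TXNDC11 (-0.14, lost with the correction) complete the 18. Not every folding gene moved. HSP90B1, the ER form of HSP90, stood at 1298, 1332 and 1363 CPM with the siRNA and 1345, 1330.0 and 1360.0 CPM in the controls (-0.02, edgeR adjusted p = 0.672), so that its groups overlapped. CANX, the membrane-bound lectin chaperone paired with CALR, had a value of -0.03 (edgeR adjusted p = 0.472) and DNAJB9, a classical target of IRE1 signalling, of 0.03 (edgeR adjusted p = 0.77). HYOU1, CRELD2, PDIA3 and CALR overlap a gene on the opposite strand, and counting ignored strand, so their values are less certain.

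**Figure D3:**
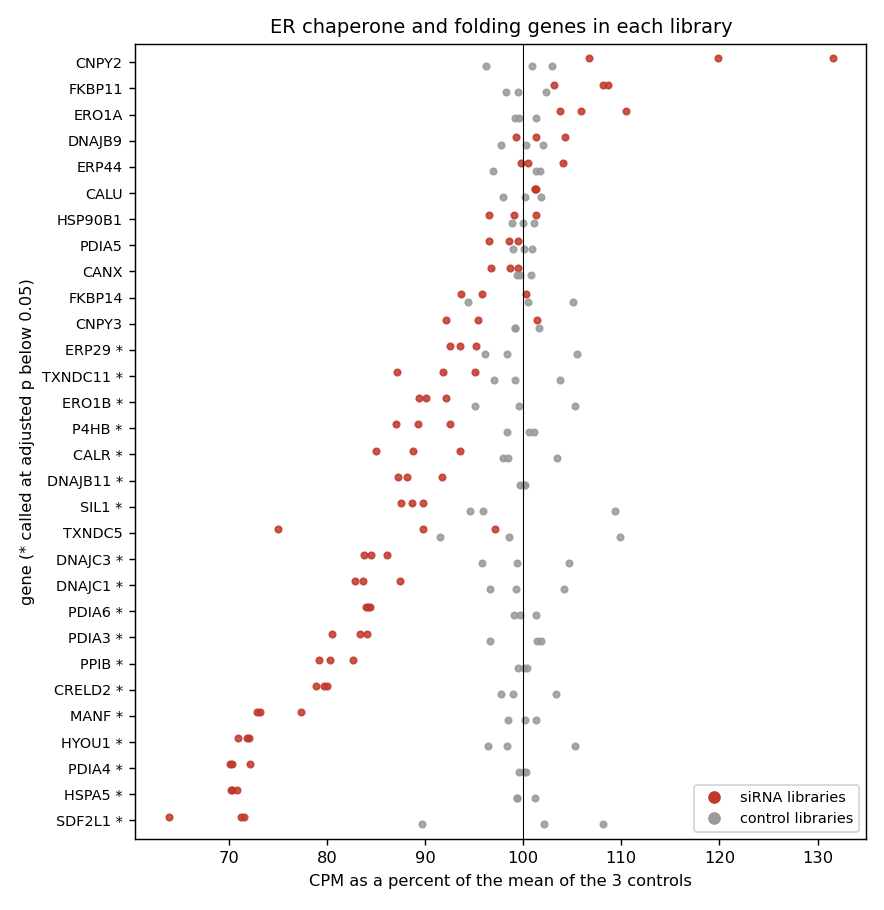
Each row is 1 of the 30 tested genes of ER chaperones and folding, ordered by log2 fold change, and each dot is 1 library (3 siRNA in red, 3 controls in grey) as a percent of the mean of the 3 controls; an asterisk marks a called gene. The siRNA dots of HSPA5, PDIA4 and HYOU1 lie near 70% with little scatter, while those of HSP90B1, CANX and DNAJB9 lie among the controls.

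The promoters of ER folding genes are known for the ER stress response element (ERSE), bound by ATF6 and XBP1 together with NF-Y. The motif was searched as CCAAT and CCACG with 9 bases of any kind between them, and the shorter ERSE-II as ATTGG and CCACG with 1 base between them, on both strands of windows from 250 bases before to 50 after each gene's start (RefSeq, GRCh38.p14). The CCAAT of ERSE is also the NF-Y motif. ERSE was found in 27 of 35116 windows (0.0769%), in 14 of the 11931 tested genes with a window (0.117%) and in 6 of the 27 tested ER folding genes with a window (22.2%). ERSE-II was found in 19 of 35116 windows (0.0541%) and in 2 of the 27. The 250 bases before the start are shown for 5 genes that fell and for HSP90B1, which did not, because they set the motif beside the response. Capitals mark the ERSE or ERSE-II letters on either strand.
HSPA5 (chr9:125241344-125241593, minus strand, 1 ERSE): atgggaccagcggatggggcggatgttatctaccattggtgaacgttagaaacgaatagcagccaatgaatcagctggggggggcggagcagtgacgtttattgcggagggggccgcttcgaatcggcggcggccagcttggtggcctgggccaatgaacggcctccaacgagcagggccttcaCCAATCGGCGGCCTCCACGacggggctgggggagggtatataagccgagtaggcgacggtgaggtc
CRELD2 (chr22:49918384-49918633, plus strand, 1 ERSE): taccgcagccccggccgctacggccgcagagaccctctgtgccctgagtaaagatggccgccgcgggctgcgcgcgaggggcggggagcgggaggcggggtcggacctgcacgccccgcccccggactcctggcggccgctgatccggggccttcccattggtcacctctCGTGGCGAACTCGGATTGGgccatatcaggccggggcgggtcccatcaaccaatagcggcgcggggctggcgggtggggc
HYOU1 (chr11:119057206-119057455, minus strand, 2 ERSE-II): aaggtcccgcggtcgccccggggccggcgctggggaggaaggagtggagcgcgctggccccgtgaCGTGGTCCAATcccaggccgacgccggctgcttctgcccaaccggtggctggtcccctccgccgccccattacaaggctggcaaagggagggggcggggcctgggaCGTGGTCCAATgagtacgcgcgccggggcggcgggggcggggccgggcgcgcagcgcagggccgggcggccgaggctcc
SDF2L1 (chr22:21642052-21642301, plus strand, 1 ERSE-II): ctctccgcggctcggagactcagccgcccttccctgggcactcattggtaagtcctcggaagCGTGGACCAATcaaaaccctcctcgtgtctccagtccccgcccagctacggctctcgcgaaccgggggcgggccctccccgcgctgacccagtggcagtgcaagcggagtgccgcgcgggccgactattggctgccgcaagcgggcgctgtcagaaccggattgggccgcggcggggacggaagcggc
HERPUD1 (chr16:56931892-56932141, plus strand, 1 ERSE-II): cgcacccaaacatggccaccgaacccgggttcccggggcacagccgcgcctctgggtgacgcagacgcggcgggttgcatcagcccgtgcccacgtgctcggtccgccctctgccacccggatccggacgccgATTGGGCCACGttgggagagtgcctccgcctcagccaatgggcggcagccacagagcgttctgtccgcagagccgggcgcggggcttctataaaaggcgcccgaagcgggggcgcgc
HSP90B1 (chr12:103930160-103930409, plus strand, 2 ERSE): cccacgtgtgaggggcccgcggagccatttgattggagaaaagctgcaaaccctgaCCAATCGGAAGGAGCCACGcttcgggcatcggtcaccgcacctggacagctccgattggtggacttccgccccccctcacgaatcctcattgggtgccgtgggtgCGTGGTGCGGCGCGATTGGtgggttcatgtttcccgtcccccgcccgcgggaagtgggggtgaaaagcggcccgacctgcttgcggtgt

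The ERSE of HSPA5 starts 66 bases before the gene's start, that of CRELD2 80 bases before it and those of HSP90B1 194 and 89 bases before it. The ERSE-II of HERPUD1 starts 117 bases before the gene's start. Of the 6 ER folding genes with an ERSE, 4 fell (HSPA5, CRELD2, CALR and ERO1B), with a median log2 fold change of -0.15 over the 6, and HSP90B1 and CANX were not called. Of the 21 without one, 12 fell, with a median of -0.16. PDIA4 and MANF, which fell by 0.50 and 0.42 on the log2 scale, hold neither motif in this window. A match is a run of letters and not a measured binding site.

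Among genes of unfolded protein response signalling 2 of 17 tested rose (11.8%) and 4 fell (23.5%), against 11.3% and 13.8% of all genes tested. ATF6 rose (from 97.3 ± 4.43 to 111 ± 2.22 CPM, mean ± SD of the 3 libraries in each group, log2 fold change 0.18, SE 0.036, edgeR adjusted p = 9.31e-05), and so did the ATF6-like factor gene CREB3L4 (0.23). CREB3L2, a membrane-bound factor of secretory cells, fell (from 114 ± 2.57 to 94.6 ± 3.04 CPM, log2 fold change -0.27, SE 0.035, edgeR adjusted p = 6.59e-08). CREB3L1 (-0.61), CEBPB (-0.24) and CREB3 (-0.15) fell as fitted and lost their calls with the GC correction. XBP1 (-0.06, edgeR adjusted p = 0.0952), ATF4 (-0.03, edgeR adjusted p = 0.38), the PERK gene EIF2AK3 (-0.09, edgeR adjusted p = 0.304), the IRE1 gene ERN1 (0.12, edgeR adjusted p = 0.128) and DDIT3, which encodes CHOP (0.09, edgeR adjusted p = 0.311), were not called. These are RNA levels, and neither cleavage nor splicing of these factors was measured.

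ER-associated degradation, by which misfolded proteins are sent to the proteasome, had 9 genes that fell and 4 that rose among 25 tested, with a median of -0.04. HERPUD1, an ER membrane protein of the degradation complex, was measured at 106.8, 104 and 102 CPM with the siRNA and 134, 132 and 136 CPM in the controls (log2 fold change -0.36, SE 0.033, edgeR adjusted p = 1.04e-11). The ubiquitin ligase SYVN1 (-0.22), the selenoprotein SELENOK (-0.23), EDEM2 (-0.21), SEL1L (-0.12) and the segregase VCP (-0.16) with its cofactors NPLOC4 (-0.16) and UFD1 (-0.09) fell. HERPUD2, a relative of HERPUD1, rose (0.22). MARCHF6, RNF139 and ERLEC1 rose as fitted and lost their calls with the correction, after which 11 genes were lower and 2 higher.

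Genes of ER entry and early secretory transport fell in shares of 25.0% to 38.2%, around the 27.6% of the highest level class. Of 24 genes of the translocon, signal recognition and signal peptide removal 6 fell (25.0%) and 0 rose, and 12 fell with the GC correction. The share that fell was 13.8% over all genes tested and 27.6% among protein-coding genes of the highest level class. SEC61B, a subunit of the translocon channel, was measured at 45.2, 41.4 and 43.3 CPM with the siRNA and 56.8, 54.5 and 54.1 CPM in the controls (log2 fold change -0.34, SE 0.046, edgeR adjusted p = 1.68e-07), its siRNA libraries below all controls. The channel subunit SEC61A1 (-0.12) and the signal recognition receptor SRPRA (-0.12) fell less. Of 33 genes of N-glycosylation 10 fell (30.3%) and 2 rose (6.06%), the falls including the oligosaccharyltransferase subunits DDOST (-0.16), RPN1 (-0.14), DAD1 (-0.14) and STT3A (-0.10). Of 34 genes of COPII and COPI vesicle transport 13 fell (38.2%) and 7 rose (20.6%). The falls were led by the cargo adaptor SEC24D (-0.25), the coat subunit SEC13 (-0.21) and the retrieval receptor KDELR1 (-0.17). Among the rises COPG2 (0.30) alone held with the GC correction, under which 15 genes of this list were lower and 1 higher.

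Genes of amino acid supply, many of them targets of the stress factor ATF4, also fell. Of 30 listed genes 29 were tested, 17 fell (58.6%) and 1 rose (SLC38A2, lost with the correction), with a median of -0.15. Of all genes tested 13.8% fell. With the GC correction 16 were lower and 2 higher, with a median of -0.12. GDF15, a secreted stress hormone, stood at 31.5, 32.3 and 27.8 CPM with the siRNA and 43.1, 47 and 41.3 CPM in the controls (log2 fold change -0.51, SE 0.057, edgeR adjusted p = 4.58e-09). SLC7A5, which carries large neutral amino acids into cells, stood at 410.4, 414 and 406 CPM with the siRNA and 521, 541 and 510.4 CPM in the controls (log2 fold change -0.35, SE 0.026, edgeR adjusted p = 1.93e-14), and its partner SLC3A2 was lower by a smaller amount (-0.16). Both genes lay below all their controls with the siRNA. The serine synthesis genes PHGDH (from 347 ± 7.16 to 288 ± 3.66 CPM, -0.27), PSAT1 (from 427 ± 11.4 to 365 ± 3.85 CPM, -0.23) and PSPH (-0.14) fell together with the one-carbon enzymes SHMT2 (-0.17), MTHFD2 (-0.07) and ALDH1L2 (-0.15). PCK2 (-0.30) and the glutamine carrier SLC1A5 (-0.23) stood at -0.18 and -0.12 with the correction and remained called. ASNS (0.01, edgeR adjusted p = 0.942), SESN2 (0.05, edgeR adjusted p = 0.544) and STC2 (0.00, edgeR adjusted p = 0.986), which ATF4 also drives, were not called. Of 22 cytosolic tRNA synthetase and partner genes 6 fell (27.3%) and 0 rose, WARS1 (-0.23) and FARSA (-0.24) by the most. The share that fell is near the 27.6% of the highest level class.

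Among heat shock chaperone genes outside the ER more rose than fell, the share that rose being near that of the highest level class. Of 20 tested heat shock genes 5 rose (25.0%) and 2 fell (10.0%), with a median of 0.02, and with the GC correction 6 rose and 3 fell. Of all genes tested 11.3% rose and 13.8% fell, and of the highest level class 22.1% rose and 27.6% fell. HSPA8, the constitutive cytosolic HSP70, stood at 1903, 1958 and 1868 CPM with the siRNA and 1717, 1707 and 1697 CPM in the controls (log2 fold change 0.16, SE 0.023, edgeR adjusted p = 4.47e-07), and the mitochondrial chaperonin gene HSPD1 rose less (0.10). The stress-induced HSPH1 (-0.03), HSP90AA1 (-0.00) and DNAJB1 (0.06) were not called (edgeR adjusted p = 0.558, 0.994 and 0.179). Proteasome subunit genes fell, 14 of 33 (42.4%) with 0 rising and a median of -0.08, and 22 of 33 with the GC correction. PSMD2, a subunit of the regulatory cap, stood at 438, 437 and 427 CPM with the siRNA and 502, 503 and 492 CPM in the controls (log2 fold change -0.20, SE 0.025, edgeR adjusted p = 3.36e-08), and PSMC4 (-0.21), PSMD13 (-0.21) and PSMB5 (-0.20) fell by like amounts.

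Genes of G2 and mitosis were higher. All 42 listed genes were tested, and 28 rose and 0 fell, where 11.3% of all tested genes rose, with a median of 0.19. The exon GC content of the list had a median of 43.8%, below the 48.4% of all genes, and with the GC correction 29 rose and 1 fell with a median of 0.16. HMMR, a spindle protein, was measured at 132, 143 and 150.5 CPM with the siRNA and 103, 101 and 104 CPM in the controls (log2 fold change 0.46, SE 0.037, edgeR adjusted p = 1.19e-11). ASPM, which acts at spindle poles, was measured at 347, 372 and 353 CPM with the siRNA and 272, 276 and 276 CPM in the controls (log2 fold change 0.38, SE 0.028, edgeR adjusted p = 1.93e-14). CENPF, a kinetochore protein, was measured at 562, 573 and 581 CPM with the siRNA and 459, 457 and 469.7 CPM in the controls (log2 fold change 0.31, SE 0.025, edgeR adjusted p = 4.84e-13). Each of these 3 genes was above all controls in all siRNA libraries. CENPE (0.29), NEK2 (0.27), ANLN (0.23), TTK (0.28), AURKA (0.24), CDC25C (0.48) and TOP2A (0.16) rose as well. The mitotic kinase PLK1 (0.09), CCNB1 (0.14) and the proliferation marker MKI67 (0.08) rose by less, and CDK1 (0.10) and BUB1B (0.09) lost their calls with the correction. FOXM1 (-0.01), AURKB (-0.07), CDC20 (-0.06) and UBE2C (-0.00) were not called (edgeR adjusted p = 0.876, 0.146, 0.106 and 0.989).

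Genes of DNA replication at the G1/S transition fell more often than they rose. Of 44 tested 17 fell (38.6%) and 2 rose (4.55%), with a median of -0.04. Of all genes tested 13.8% fell and 11.3% rose, and of the highest level class 27.6% fell and 22.1% rose. DNMT1, the maintenance DNA methyltransferase, was measured at 269, 272 and 264 CPM with the siRNA and 313, 318 and 314 CPM in the controls (log2 fold change -0.23, SE 0.027, edgeR adjusted p = 4.84e-09). TK1 (from 133 ± 1.11 to 111 ± 3.5 CPM, -0.26), CLSPN (-0.23), UHRF1 (-0.21), CDC45 (-0.20), MCM3 (-0.16) and RRM2 (-0.13) fell, TK1 standing at -0.13 with the correction. Some members moved little, for instance TYMS (0.04, edgeR adjusted p = 0.557) and RRM1 (0.03, edgeR adjusted p = 0.415).

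In the CDK4/6 and RB pathway, the axis named in the study's title, 8 of 29 tested genes rose (27.6%) and 6 fell (20.7%). Of all genes tested 11.3% rose and 13.8% fell, and of the highest level class 22.1% rose and 27.6% fell. E2F1, an RB-bound activator of the cell cycle, was measured at 91, 87.9 and 87.3 CPM with the siRNA and 106, 108 and 107.3 CPM in the controls (log2 fold change -0.26, SE 0.035, edgeR adjusted p = 1e-07), and at -0.14 with the correction. E2F2 (-0.19), the dimer partner TFDP1 (-0.17), E2F4 (-0.23) and cyclin CCND3 (-0.31) fell with it. RB1 (ENSG00000139687, plus strand of GRCh38 chromosome 13, 48303726 to 48599436) stood at 111, 118 and 122 CPM with the siRNA and 107.2, 99.8 and 101 CPM in the controls (log2 fold change 0.18, SE 0.036, edgeR adjusted p = 0.000136). All siRNA libraries of RB1 lay above its controls, but its call ended with the GC correction (0.09, edgeR adjusted p = 0.0518). RBL2, an RB relative (0.19), the cyclin gene CCNA2 (0.23) and the inhibitor CDKN1B (0.16) rose. CDK4 fell (from 137 ± 5.79 to 124 ± 3.33 CPM, -0.14) and CDK6 rose (from 276 ± 12.2 to 295 ± 2.95 CPM, 0.10), the latter losing its call with the correction (0.01, edgeR adjusted p = 0.776). Cyclin D1, CCND1, stood at 3371, 3299 and 3272 CPM with the siRNA and 3285, 3314 and 3272 CPM in the controls (0.01, edgeR adjusted p = 0.785) and CDKN1A, the p21 gene, at 238, 235 and 234 CPM with the siRNA and 241, 245 and 232 CPM in the controls (-0.02, edgeR adjusted p = 0.62), both with overlapping groups. MYC was lower in all siRNA libraries, at 128, 134 and 143 CPM with the siRNA and 163, 161 and 155 CPM in the controls (log2 fold change -0.25, SE 0.034, edgeR adjusted p = 3.39e-07). Opposite-strand genes overlap CDK4, CDK6, CCND1 and CDKN1A.

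The machinery of small RNA silencing, which an siRNA itself uses, was higher. Of 19 listed genes 17 were tested, 8 rose (47.1%) and 1 fell (DGCR8, -0.12, lost with the correction), and with the correction 8 rose and 0 fell. Of all genes tested 11.3% rose. AGO2, the Argonaute that cuts its targets, was measured at 374, 374 and 358 CPM with the siRNA and 299, 290.5 and 302 CPM in the controls (log2 fold change 0.31, SE 0.027, edgeR adjusted p = 2.57e-12). AGO3 (0.23) and AGO4 (0.31) rose as well, whereas AGO1 was not called (0.05, edgeR adjusted p = 0.27). TNRC6A, the scaffold that links Argonautes to deadenylation, was measured at 155, 148 and 159 CPM with the siRNA and 109.5, 109.7 and 110.1 CPM in the controls (log2 fold change 0.49, SE 0.033, edgeR adjusted p = 8.72e-16), and its relatives TNRC6B (0.28) and TNRC6C (0.15) rose too. DICER1, measured at 244, 249 and 250.3 CPM with the siRNA and 178, 164 and 177 CPM in the controls, stood at 143% of control. DROSHA (0.05), XPO5 (-0.04) and TARBP2 (0.12), which act before or beside Dicer, were not called (edgeR adjusted p = 0.304, 0.363 and 0.101).

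Of 44 genes of mRNA decapping, deadenylation and decay 11 rose (25.0%) and 3 fell (6.82%), and with the GC correction 5 rose and 4 fell. Over all genes tested 11.3% rose and 13.8% fell, and in the highest level class 22.1% rose and 27.6% fell, so the share that rose is near that class. The decapping enzyme gene DCP2, at 193, 189 and 188 CPM with the siRNA and 122, 120.4 and 132 CPM in the controls, stood at 152% of control. The 5′ to 3′ exonuclease XRN1 was measured at 156, 160.3 and 152 CPM with the siRNA and 127, 123 and 127 CPM in the controls (log2 fold change 0.32, SE 0.032, edgeR adjusted p = 1.52e-10), and the deadenylase CNOT6L at 99.2, 89.2 and 90.2 CPM with the siRNA and 71, 69.1 and 77.1 CPM in the controls (log2 fold change 0.36, SE 0.044, edgeR adjusted p = 1.04e-07). PAN2 (0.20) and CNOT6 (0.18) rose less, CNOT6 standing at 0.09 with the correction. The decapping partners DCP1A (0.02), EDC3 (-0.01) and EDC4 (-0.01) were not called (edgeR adjusted p = 0.807, 0.842 and 0.85).

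Cholesterol synthesis genes were higher in part. Of 27 tested 11 rose (40.7%) and 3 fell (11.1%), with a median of 0.08, and with the GC correction 14 rose and 1 fell with a median of 0.13. Over all genes tested 11.3% rose and 13.8% fell, and in the highest level class 22.1% rose and 27.6% fell. HMGCS1, which makes HMG-CoA, was measured at 197, 197 and 189.9 CPM with the siRNA and 142, 140.2 and 145 CPM in the controls (log2 fold change 0.45, SE 0.03, edgeR adjusted p = 8.72e-16). MSMO1 (0.33), SC5D (0.28), SQLE (0.26), IDI1 (0.19) and the feedback protein INSIG1 (0.26) rose. SREBF1, the SREBP gene tied to fatty acid synthesis, fell (172, 176 and 182 CPM with the siRNA and 221, 235 and 222 CPM in the controls, log2 fold change -0.36, SE 0.03, edgeR adjusted p = 1.1e-12), while SREBF2 (0.01, edgeR adjusted p = 0.864) was not called. In the glycolysis and hypoxia list 14 of 35 fell and 7 rose. HK2 (from 183 ± 5.47 to 143 ± 2.06 CPM, -0.35), SLC2A1 (-0.24), PKM (-0.19) and PFKM (-0.16) fell, and KDM3A (0.32) and BNIP3L (0.31) rose. Of 43 nuclear genes of the respiratory chain 18 fell (41.9%) and 3 rose (6.98%), with a median of -0.07. COX4I1 (-0.17), ATP5MC1 (-0.19) and UQCRFS1 (-0.16) fell, UQCRC1 (-0.14) and CYC1 (-0.13) lost their calls with the correction, and NDUFB5 rose (0.25).

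**Figure D4:**
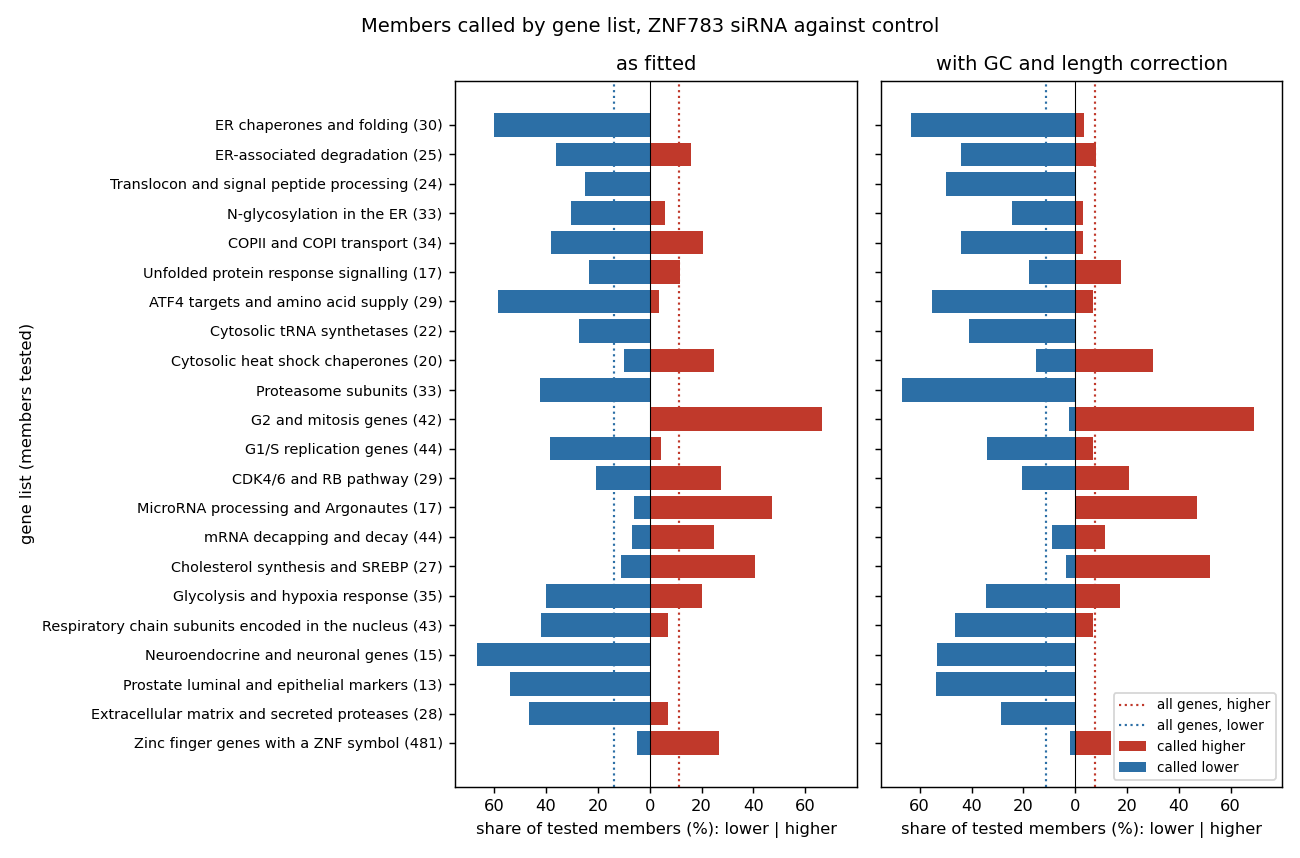
For 22 gene lists, with the number of members tested in brackets, bars give the percent of members called lower (blue, to the left) and higher (red, to the right), as fitted and with the GC and length correction; dotted lines give the same shares over all genes tested, 13.8% lower and 11.3% higher as fitted. ER folding, ATF4 target and proteasome genes lie to the left and G2 and mitosis, microRNA machinery and cholesterol genes to the right in both panels.

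Some prostate luminal and epithelial markers were lower. Of 13 tested 7 fell (53.8%), 0 rose and 6 were not called, as fitted and with the GC correction, with a median of -0.13. Over all genes tested 13.8% fell, and in the highest level class 27.6%. KLK3, which encodes prostate-specific antigen, was measured at 9.77, 9.21 and 10.3 CPM with the siRNA and 13, 16.3 and 12.4 CPM in the controls (log2 fold change -0.51, SE 0.096, edgeR adjusted p = 6.4e-05). The simple keratin genes KRT8 (from 649 ± 12.5 to 540.1 ± 19.1 CPM, -0.26) and KRT19 (from 607 ± 26.4 to 502 ± 26.5 CPM, -0.28) and the folate hydrolase FOLH1 (-0.21), known as PSMA, fell, KRT19 standing at -0.16 with the correction. FOXA1 (-0.02, edgeR adjusted p = 0.625) and TMPRSS2 (-0.17, edgeR adjusted p = 0.147) were not called. Of 25 neuroendocrine and neuronal genes 15 were tested, and 10 fell (66.7%) and 0 rose with a median of -0.23 (8 fell and 0 rose with the correction). VGF, a granin-like precursor of secreted peptides, was measured at 338, 354 and 350.2 CPM with the siRNA and 581, 647 and 565 CPM in the controls, or 58.1% of control. CHGB, a granin of secretory granules, was measured at 24, 23.7 and 27.8 CPM with the siRNA and 33.2, 33.1 and 35.2 CPM in the controls (log2 fold change -0.44, SE 0.061, edgeR adjusted p = 3.04e-07). The synaptic vesicle genes SYP (-0.30) and SV2A (-0.23) and the prohormone processing enzyme CPE (-0.24) fell. CHGA stood at 0.15 (edgeR adjusted p = 0.79). The summed level of the 25 genes was 1240.0 to 1260.0 CPM with the siRNA and 1550.0 to 1650.0 CPM in the controls, much of it from VGF.

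Matrix and secreted protease genes fell in 13 of 28 tested (46.4%) and rose in 2 (7.14%), and 8 fell with the GC correction. COL12A1, a fibril-associated collagen, was measured at 8.22, 7.89 and 7.53 CPM with the siRNA and 13.2, 13.6 and 12.7 CPM in the controls (log2 fold change -0.73, SE 0.093, edgeR adjusted p = 4.56e-08). The matrix protein THBS1 was measured at 103, 104 and 97.9 CPM with the siRNA and 130.1, 138 and 134 CPM in the controls (log2 fold change -0.40, SE 0.034, edgeR adjusted p = 1.61e-12), and the basement membrane gene NID1 at 19.6, 19.3 and 19.4 CPM with the siRNA and 24.4, 27.2 and 25.9 CPM in the controls (log2 fold change -0.41, SE 0.066, edgeR adjusted p = 4.4e-06). LAMB3, LAMA5, COL1A1, TIMP1, MMP15 and COL5A1 fell as fitted and lost their calls with the correction. Early response genes fell in 11 of 32 tested (34.4%) and rose in 2 (6.25%). JUNB (-0.29), DUSP1 (-0.29) and IER5 (-0.36) were among the falls, JUNB standing at -0.14 with the correction. In the interferon and double-stranded RNA list, a common check after siRNA, 2 of 25 tested genes rose (8.0%) and 2 fell (8.0%), against 11.3% and 13.8% of all genes tested.

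The 15 highest and the 15 lowest fold changes among called genes, taken from genes of at least 10 CPM without overlap between the groups, held further genes outside these lists. LSM11, a subunit of the particle that trims histone transcripts, was measured at 40, 39.5 and 37.6 CPM with the siRNA and 26.6, 23.9 and 27.5 CPM in the controls (log2 fold change 0.59, SE 0.057, edgeR adjusted p = 7.12e-11). ARRDC3, an alpha-arrestin, was measured at 93.3, 89.6 and 87.4 CPM with the siRNA and 56.5, 59.7 and 64.5 CPM in the controls (log2 fold change 0.58, SE 0.042, edgeR adjusted p = 2.65e-14). DHRS2, a short-chain dehydrogenase, was measured at 50.9, 48.9 and 51 CPM with the siRNA and 34.3, 35.7 and 33.7 CPM in the controls (log2 fold change 0.54, SE 0.049, edgeR adjusted p = 7.52e-12), and CROT, a peroxisomal carnitine acyltransferase, at 198, 191 and 201 CPM with the siRNA and 141, 137 and 143 CPM in the controls (log2 fold change 0.49, SE 0.031, edgeR adjusted p = 9.08e-17). In these 4 genes the groups did not overlap. CREBRF (0.55), CUTA (0.53), ZNF138 (0.52), KLHL28 (0.51), the urea cycle enzyme CPS1 (0.51), SYNRG (0.51), FAM217B (0.51) and IGIP (0.49) were the other rises.

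Among the lowest, MUC13, a membrane mucin, was measured at 36.4, 34.8 and 38 CPM with the siRNA and 60.7, 60.1 and 60.6 CPM in the controls (log2 fold change -0.74, SE 0.046, edgeR adjusted p = 9.44e-17). SELENBP1, a selenium-binding protein, was measured at 110.3, 117 and 114 CPM with the siRNA and 170.2, 174 and 169 CPM in the controls (log2 fold change -0.59, SE 0.032, edgeR adjusted p = 5.54e-19), and CELSR2, an atypical cadherin, at 49, 50.3 and 47.5 CPM with the siRNA and 70.2, 77 and 73.7 CPM in the controls (log2 fold change -0.59, SE 0.043, edgeR adjusted p = 2.56e-14). NES, the intermediate filament nestin, was measured at 27.9, 28.5 and 30.1 CPM with the siRNA and 44, 45.8 and 41.3 CPM in the controls (log2 fold change -0.60, SE 0.054, edgeR adjusted p = 7.63e-12). The siRNA libraries of these 4 genes lay close together and below all controls. DIO2, a deiodinase that makes active thyroid hormone, had the lowest fold change of the 15, at 55.3% of control. SEMA6B (-0.72), the lysophospholipid carrier MFSD2A (-0.68), MISP (-0.64), C1QL4 (-0.61), the retinoic acid binding protein CRABP2 (-0.61), the homeobox gene DLX3 (-0.60) and OLFM2 (-0.59) were the other falls beside VGF, COL12A1 and ADAMTS1.

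Measured in CPM rather than in fold, the 10 called genes with the largest rise were EEF1A1, HSPA8, RPL4, HNRNPA1, EIF4B, HSPD1, ARL6IP1, HMGN2, CENPF and EIF4G2. EEF1A1, the elongation factor that delivers tRNA to the ribosome, was measured at 7133, 7119 and 7198 CPM with the siRNA and 6400.0, 6441 and 6379 CPM in the controls (log2 fold change 0.16, SE 0.021, edgeR adjusted p = 1.34e-07). ARL6IP1, which shapes ER tubules, was measured at 447, 442 and 448 CPM with the siRNA and 329, 310.0 and 335 CPM in the controls (log2 fold change 0.46, SE 0.027, edgeR adjusted p = 1.95e-17), and the translation initiation factor EIF4B at 724, 721 and 729.5 CPM with the siRNA and 596, 578 and 588 CPM in the controls (log2 fold change 0.30, SE 0.024, edgeR adjusted p = 2.67e-13). HNRNPA1 (0.12, edgeR adjusted p = 0.108) and EIF4G2 (0.04, edgeR adjusted p = 0.177) lost their calls with the GC correction. The 10 with the largest fall were ACTG1, ACTB, HSPA5, VGF, APLN, CKB, PDIA4, GAPDH, PEG10 and CALR. The cytoplasmic actin genes ACTG1 (from 2942 ± 52.6 to 2438 ± 33 CPM, -0.27) and ACTB (from 2566 ± 67.4 to 2195 ± 32.8 CPM, -0.23) fell, as did APLN, the peptide ligand apelin (628, 607 and 613 CPM with the siRNA and 851, 899 and 837 CPM in the controls, log2 fold change -0.48, SE 0.026, edgeR adjusted p = 5.54e-19). CKB stood at -0.29 as fitted and -0.13 with the correction. GAPDH fell by a small amount with overlapping groups (-0.08, edgeR adjusted p = 0.0127) and had a value of 0.01 with the correction (edgeR adjusted p = 0.709). EEF1A1, HSPA8, RPL4, HNRNPA1, HMGN2, ACTG1, ACTB and GAPDH have near-identical processed copies in the genome with which reads may be shared, and their values are uncertain to that extent.

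Zinc finger genes with a ZNF symbol rose more often than they fell. Of 557 such genes 481 were tested, 128 rose (26.6%) and 24 fell (4.99%), ZNF783 itself among the falls, with a median of 0.11. Their exons have a median GC content of 42.8%, and with the GC correction 67 rose and 9 fell with a median of 0.07. Over all genes tested 11.3% rose and 13.8% fell. Among protein-coding genes with 40.9% to 45.7% GC, 20.8% rose and 8.03% fell. ZNF107 (from 77.8 ± 2.34 to 102 ± 3.62 CPM, 0.39), ZNF678 (from 40.8 ± 2.07 to 54.1 ± 1.25 CPM, 0.40), ZNF91 (0.34) and ZNF292 (0.28) rose, ZNF292 standing at 0.18 with the correction. These genes are paralogs that share repeated finger sequence, so reads may be split between them. In the chromosome 7 neighbourhood of ZNF783 7 of 19 tested genes fell (36.8%), ZNF783 itself among them, and 1 rose (5.26%). Of all genes tested 13.8% fell. The median exon GC content of the 19 was 55.1%, and of protein-coding genes with 51.9% to 58.6% GC 23.9% fell. Whether these falls relate to position was not tested. Beside PDIA4 and ZNF783 itself, SSPOP (from 84.1 ± 2.42 to 63 ± 0.633 CPM, -0.42), ATP6V0E2 (-0.23), ZNF467 (-0.36), KRBA1 (-0.26) and ZNF786 (-0.19) fell, KRBA1 and ZNF786 losing their calls with the correction. Of 18 corepressor and H3K9 methylation genes through which many zinc finger proteins act 4 rose (22.2%) and 3 fell (16.7%). TRIM28 was not called (-0.06, edgeR adjusted p = 0.0731).

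STRADB, a partner of the kinase LKB1, had the highest fold change among the 15, at 38.5, 37.2 and 38.4 CPM with the siRNA and 22.9, 24.4 and 22.6 CPM in the controls. In the list of LKB1 and AMPK genes 5 of 15 rose (33.3%) and 1 fell (6.67%), with the same counts under the GC correction. Over all genes tested 11.3% rose and 13.8% fell. The AMPK subunits PRKAB2 (from 68.4 ± 1.87 to 87.8 ± 1.58 CPM, log2 fold change 0.36, SE 0.038, edgeR adjusted p = 1.19e-09), PRKAA2 (0.28) and PRKAB1 (0.15) and the related kinase SIK2 (0.15) rose, and CAB39L fell (-0.23). LKB1 itself, STK11, was not called (-0.08, edgeR adjusted p = 0.089).

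Calls near the threshold depended on single libraries. Among the genes described, calls ended without siRNA replicate 1 for SIL1, TXNDC11, ERO1B, ERP29, UFD1, RNF139, MARCHF6, CREB3, CREB3L1, DAD1, MTHFD2, PLK1, TNRC6C, DGCR8, LAMB3, COL1A1, COL5A1 and GAPDH. Without siRNA replicate 2 they ended for MKI67, KRBA1 and ZNF786 and for 8 of those just named, and without siRNA replicate 3 also for BUB1B and ERLEC1. Leaving out control replicate 1 ended the call of PSPH, control replicate 2 those of CDK1 and CDK6, and control replicate 3 that of STT3A, each beside genes already named. The edgeR adjusted p in these cases ran from 0.0501 to 0.346. Without ETS1 siRNA replicate 1 in the joint fit of the other 11 libraries, CUTA and SYNRG were not called.

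The same checks were made on the counts of the lists. When 1 library was left out at a time, 14 to 17 of the ER folding genes, 15 to 17 of the ATF4 targets and 10 to 13 of the proteasome genes fell, 26 to 29 of the G2 and mitosis genes, 6 to 8 of the small RNA genes and 10 to 11 of the cholesterol genes rose. The fit of all 12 libraries gave fewer calls, with 8 ER folding genes, 4 ATF4 targets and 2 proteasome genes lower and 7 G2 and mitosis genes, 5 small RNA genes and 5 cholesterol genes higher. Among counts of 4 or more given for the lists described, the following moved by over 1.5 times without 1 library. Rises in the CDK4/6 and RB list numbered 5 without siRNA replicate 2 or control replicate 2, and rises among the COPII and COPI genes 4 without siRNA replicate 1 or control replicate 2. Rises in ER-associated degradation numbered 2 without siRNA replicate 1 or 3, falls in unfolded protein response signalling 2 without siRNA replicate 1 or control replicate 1, and falls among tRNA synthetases 3 without control replicate 1. Rises of the corepressor genes numbered 2 without siRNA replicate 3. Falls of ZNF genes numbered 15 without siRNA replicate 1 and 12 without control replicate 2.

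The GC and length correction moved further values by over 1.5 times without ending their calls. Falls became smaller for P4HB (-0.07), SLC3A2 (-0.08), SHMT2 (-0.10), FARSA (-0.13), E2F2 (-0.12), E2F4 (-0.13), SREBF1 (-0.24), SSPOP (-0.26) and ZNF467 (-0.18). They became larger for ERO1B (-0.23), DNAJB11 (-0.26), SEL1L (-0.20), STT3A (-0.15) and MTHFD2 (-0.15). Rises became smaller for ATF6 (0.11), CENPE (0.19), ANLN (0.15), TOP2A (0.07), CCNB1 (0.09), AGO3 (0.14), IDI1 (0.12), HSPD1 (0.06) and PRKAA2 (0.19), and larger for PLK1 (0.16).

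The effect of ZNF783 siRNA was also tested against that of ETS1 siRNA, each taken against its own controls. ETS1 itself had 0 to 3 counts in each of the 12 libraries, controls included, so a fall of its RNA could not be seen. ETS1 siRNA replicate 1 stands apart from replicates 2 and 3 of its group, so most results are given with and without it. The difference was called for 330 of 19594 genes (1.68%) with all 12 libraries and for 2735 of 20018 (13.7%) without that replicate. Leaving out 1 ZNF783 library gave 145 to 165 genes and leaving out 1 ETS1 control 140 to 178. HSPA5 fell by 0.51 on the log2 scale with ZNF783 siRNA and had a value of 0.28 with ETS1 siRNA without replicate 1, a difference of -0.76 over all 12 libraries (SE 0.059, edgeR adjusted p = 6.44e-05). PDIA4 had a value of 0.14 with ETS1 siRNA without replicate 1 and a difference of -0.58 over all 12 libraries (SE 0.077, edgeR adjusted p = 0.00262). For ARL6IP1 these were -0.53 and 1.07 (SE 0.097, edgeR adjusted p = 0.000182). DIO2 moved in opposite directions, with 0.86 under ETS1 siRNA without replicate 1 and a difference of -1.82 over all 12 libraries (SE 0.12, edgeR adjusted p = 1.76e-05). With replicate 1 kept, the ETS1 siRNA values were 0.24 for HSPA5, 0.07 for PDIA4 and -0.62 for ARL6IP1, none of them called (edgeR adjusted p = 0.156, 0.613 and 0.0834). That of DIO2 was 0.95 (edgeR adjusted p = 0.0426). Without replicate 1 the differences were -0.79 for HSPA5, -0.63 for PDIA4, 0.99 for ARL6IP1 and -1.72 for DIO2, all of them called. For DCP2 (0.36 with ETS1 siRNA without replicate 1, difference 0.33, edgeR adjusted p = 0.137) and STRADB (0.33, difference 0.33, edgeR adjusted p = 0.0557) the difference did not pass with all 12 libraries. ZNF783 RNA had a value of -0.23 with ETS1 siRNA without replicate 1. Its difference over all 12 libraries, with replicate 1 kept, was 0.05 (SE 0.16, edgeR adjusted p = 0.925). The 2 experiments had separate controls, and the siRNA target and the experiment cannot be told apart in this contrast.

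**Figure D5:**
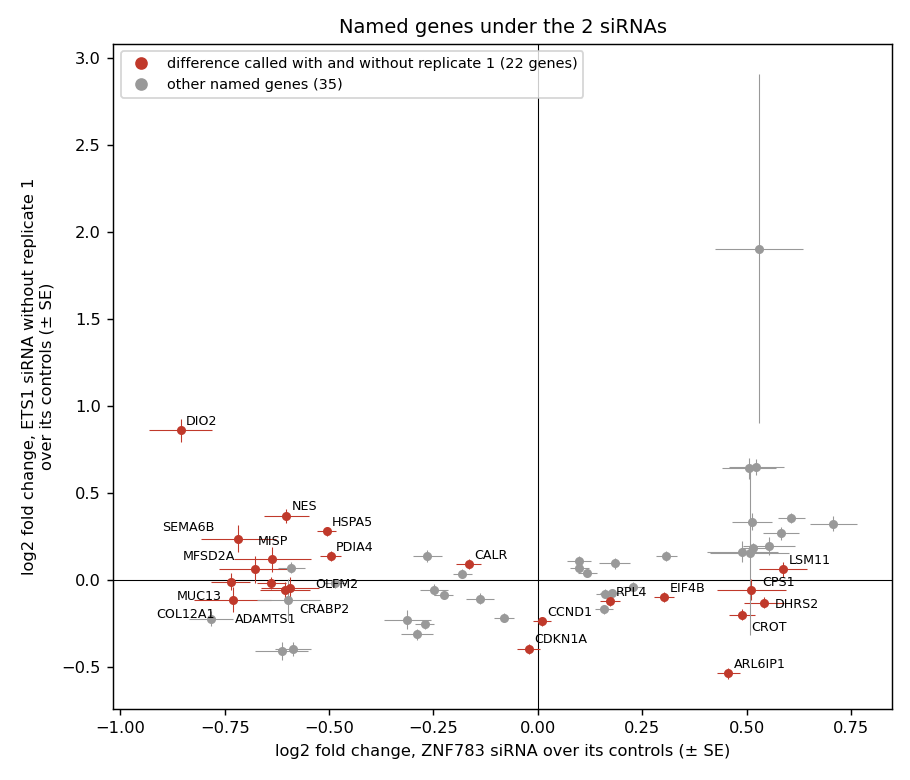
Each point is 1 of 57 named genes, with its log2 fold change (± SE) under ZNF783 siRNA on the horizontal axis and under ETS1 siRNA without replicate 1 on the vertical axis. Most were picked for their change under ZNF783 siRNA. The 22 genes in red had a called difference both with and without that replicate; DIO2, NES, SEMA6B, HSPA5 and PDIA4 lie at the upper left and ARL6IP1, CROT and DHRS2 at the lower right, and the point with the long error bar is CUTA.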

How the data were processed

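RNA of 22Rv1 cells was sequenced from directional libraries, per the labels' protocols. The values deposited by the authors are raw counts per gene, not normalized: per the file headers, featureCounts 2.0.1 counted read pairs on exons per gene, using the release 107 GRCh38 annotation and no strand option. The submitters' processing notes name hg38. The aligner's version and settings were not given in the sources used here. Of 61860 genes 61757 matched a symbol. Mitochondrially encoded genes have 0 counts in these libraries.

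Counts were tested with edgeR 4.0.16 (R 4.3.3): default filter, TMM scaling, robust quasi-likelihood F test with group as the only term, on the 6 ZNF783 libraries, with p-values adjusted over 17630 genes. CPM are TMM-scaled, given as mean ± SD. Floors and spreads cover counting error and these libraries only. No replicates agreed within sampling noise (chi-square per degree of freedom 1.32 to 1.88), so none were merged. The GC and length correction, with the longest GENCODE 29 transcript of each gene, had values for 97.9% of genes, and the other genes were left uncorrected. The test was checked on simulated counts.

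Named genes were 8 fixed ones, the 15 highest and 15 lowest called log2 fold changes (mean of at least 10 CPM, no overlap, clone, LINC, LOC, antisense and pseudogene symbols left out), the 10 largest rises and falls in CPM, per list the 6 or fewer members of lowest adjusted p, and up to 5 genes with 0 counts in one group, of which there were 0. Other list members are named to account for a list's counts and were chosen after their values were seen. The comparison, 39 gene lists, 12 symbol families and the motifs were chosen with earlier results of these data known. Some of these genes and lists are not reported here. Alternatives were other scalings and filters, DESeq2 1.42.0, limma-voom 3.58.1, a replicate block, stricter thresholds, the correction and leaving out libraries.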

Additional observations from a re-analysis of the deposited data

Results flagged for a closer look

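Of the 57 genes named by fixed choice, fold change or change in CPM, 22 had an effect of ZNF783 siRNA that differed from that of ETS1 siRNA by edgeR's test of the difference itself, with all 12 libraries and again without ETS1 siRNA replicate 1. Over all genes the difference was called for 1.68% and 13.7% in these 2 fits. Most of the 57 were picked for large changes with ZNF783 siRNA in these same libraries, so a higher share among them is built into the choice. Groups of 3 libraries are too small to test for a single outlying sample, and 15 of the 22 had opposite signs under the 2 siRNAs when replicate 1 was left out. This counts signs alone. Among the 15, CPS1 (-0.05), MFSD2A (0.06) and MISP (0.12) were not called under ETS1 siRNA (edgeR adjusted p = 0.594, 0.652 and 0.243). CCND1 was not called under ZNF783 siRNA (0.01, edgeR adjusted p = 0.785).

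The difference, ZNF783 effect minus ETS1 effect on the log2 scale over 12 libraries, was negative for 13 genes. It was -1.82 for DIO2, -0.89 for NES, -0.88 for SEMA6B and -0.86 for MUC13. Values of -0.76, -0.76, -0.70, -0.68 and -0.62 were found for COL12A1, HSPA5, MFSD2A, MISP and CRABP2. ADAMTS1 stood at -0.58, PDIA4 at -0.58, OLFM2 at -0.56 and the chaperone gene CALR at -0.31. It was positive for the other 9, with 1.07 for ARL6IP1, 0.75 for CROT, 0.68 for DHRS2, 0.61 for LSM11, 0.57 for CPS1 and 0.40 for EIF4B. CDKN1A (0.44), RPL4 (0.30) and cyclin D1, CCND1 (0.24), complete the 22. CDKN1A and CCND1 were not called with ZNF783 siRNA, and their values with ETS1 siRNA without replicate 1 were -0.39 and -0.24.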

How the results depend on the processing

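Of 4428 genes called between ZNF783 siRNA and control, 2540 (57.4%) kept call and direction in all 6 fits that left out 1 library, which called 3485 to 4127 genes. Other scalings called 4426 to 4498 genes and put the median log2 fold change of all genes at 0.0041 to 0.013, against 0.0017. DESeq2's Wald test called 2718, the fit of all 12 libraries 824, an adjusted p below 0.01 left 2931 and a 2-fold change 42. ZNF783 RNA lost its call in the 12-library fit (-0.32, edgeR adjusted p = 0.145); in its other edgeR, DESeq2 and limma-voom fits the adjusted p ran from 7.13e-06 to 0.00217, at -0.31 it does not reach 2-fold, and leaving out 1 library gave -0.33 to -0.29. The count of genes whose effect differed between the siRNAs was 330, 663 with DESeq2 and 140 to 2735 when 1 library was left out, the highest without ETS1 siRNA replicate 1; 11 of these 12 fits were chosen after seeing the data, as was the joint fit of 11 libraries. Replicate numbers did not pair the libraries (same-number correlations -0.0793 to -0.0438), and no siRNA library correlated best with its own number. With the replicate block 4476 genes were called, or 3256 with the GC and length correction added, and 54 differed between the siRNAs. Signs reversed, without a call, for CCND1 in the 12-library fit (-0.0013) and, with the correction without and with the block, for CDKN1A (0.063 and 0.062), CYC1 (0.0205 and 0.01997) and GAPDH (0.013 and 0.012). The causes were not tested. Calls were fewer among genes of low counts: 553 of 7161 genes below a mean of 10 CPM were called (7.72%), against 3875 of 10469 above it (37.0%).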

Other observations

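Other groups of genes are given as counts with ZNF783 siRNA, beside the 11.3% of all tested genes that rose and the 13.8% that fell. Of 85 cytosolic ribosomal protein genes 10 rose and 8 fell, the falls ranging from 2 to 22 when 1 library was left out (2 without siRNA replicate 3 or control replicate 1, 3 without control replicate 2, 4 without siRNA replicate 2 and 22 without control replicate 3). Of 75 mitochondrial ribosomal protein genes 3 rose and 16 fell (median log2 fold change -0.06), and 16 also fell with the GC and length correction. Translation initiation factors had 12 rises and 10 falls among 68 genes, and 5 rises and 12 falls with the correction; 6 falls were counted without siRNA replicate 1 or 3 and 5 without control replicate 1. Genes of heterogeneous nuclear ribonucleoproteins had 6 rises and 3 falls among 35, and 2 rises and 6 falls with the correction. SR splicing factors, which bind exonic enhancers of splicing, had 1 rise and 4 falls among 12, or 0 and 7 with the correction, and 2 falls without siRNA replicate 1.

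Among p53 targets 9 of 28 rose and 3 fell, and 7 rose and 3 fell with the correction. Autophagy and lysosome genes rose in 9 of 32 and fell in 4, with 2 falls counted without siRNA replicate 1 and 1 without control replicate 2. Of 17 BCL2 family genes, which set the threshold of cell death, 4 rose and 2 fell. NRF2 targets gave 4 rises and 3 falls among 21, NF-kB targets 1 and 2 among 13 and fatty acid synthesis genes 3 and 4 among 18. Of 21 ETS family factors 5 rose and 5 fell, but 1 and 2 with the correction. The ETS falls numbered 2 without siRNA replicate 1 and 3 without siRNA replicate 3, control replicate 2 or control replicate 3. Of 20 dual specificity phosphatases 0 rose and 5 fell, with 2 falls counted without siRNA replicate 1 or control replicate 2 and 3 without siRNA replicate 2, siRNA replicate 3 or control replicate 1. Of 7 keratin genes tested 5 fell (71.4%) and 0 rose, with a median log2 fold change of -0.26. Histone genes fell in 4 of 24 and rose in 0. Solute carriers rose in 34 and fell in 53 of 262, RAB GTPases in 9 and 13 of 57, and ubiquitin-conjugating enzymes in 5 and 7 of 32. Rises of the last numbered 1 without siRNA replicate 1 or 3, 2 without control replicate 1 or 3 and 3 without siRNA replicate 2 or control replicate 2. Of 4 basal epithelial markers tested 2 fell, of 4 fibroblast markers 2, of 2 endothelial markers 1 and of 2 leukocyte markers 0, with 0 rises in each.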
